A study of Sus scrofa with 6 samples.

Results

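The miR-17 to miR-92 cluster, with its paralogs, was followed here by small RNA sequencing in pig oocytes stripped of the surrounding cumulus cells. The group was taken by name and holds 10 of the 326 mature pig microRNAs (miRNAs) in the deposited tables: ssc-miR-17-5p, ssc-miR-17-3p, ssc-miR-18a, ssc-miR-19a, ssc-miR-19b, ssc-miR-20a, ssc-miR-20b, ssc-miR-92a, ssc-miR-92b-3p and ssc-miR-106a, written below without the species prefix. The oocytes came from slaughtered prepubertal gilts and formed 2 groups of 3 libraries each. Large-follicle oocytes (LO) were taken from follicles of 3 to 6 mm through a 20-gauge needle on a 10 mL syringe, while small-follicle oocytes (SO) came out of follicles of less than 2 mm through a 23-gauge needle on a 5 mL syringe. Follicle size cannot be told apart from needle and syringe in this design. By its title, the series asks how miRNA levels relate to an oocyte's developmental competence. The sources used here call the replicates biological without giving the animals or oocytes behind a library. The p-values measure the spread between these libraries, which the main comparison of LO with SO pools over miRNAs.

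miRNAs are short RNAs that pair, mainly through their seed (bases 2 to 8), with messenger RNAs and repress them. The miR-17 to miR-92 cluster is a polycistron: a single primary transcript is cut into several hairpins, each of which gives mature miRNAs. It is known as a growth-promoting unit, driven by MYC and E2F factors, whose miR-17 and miR-20 products repress cell cycle inhibitors. In mammals it has paralogs, among them one on the X chromosome that carries miR-106a and miR-20b. In RefSeq (assembly Sscrofa11.1, used only for gene order) the pig genes MIR17, MIR18A, MIR19A, MIR20A, MIR19B-1 and MIR92A-1 lie next to each other in this order, called here the MIR17 cluster. A second run of 6 neighbours holds MIR363-1, MIR92A-2, MIR19B-2, MIR20B-1, MIR18B and MIR106A, called here the MIR106A cluster, and MIR92B stands apart from both.

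The mature sequences, as deposited (5′ to 3′, with T for U and the seed in capitals), show what the names share and where they differ. The miR-17 seed AAAGTGC is carried by 4 members.
ssc-miR-17-5p: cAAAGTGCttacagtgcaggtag
ssc-miR-20a: tAAAGTGCttatagtgcaggta
ssc-miR-20b: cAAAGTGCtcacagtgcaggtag
ssc-miR-106a: aAAAGTGCttacagtgcaggtagc
The miR-18 seed differs from it by A4G (the base of miR-17-5p, the position from the 5′ end, the base of miR-18a).
ssc-miR-18a: tAAGGTGCatctagtgcagata
The miR-19 seed is carried by 2 members.
ssc-miR-19a: tGTGCAAAtctatgcaaaactga
ssc-miR-19b: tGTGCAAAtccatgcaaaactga
The miR-92 seed is carried by 2 members.
ssc-miR-92a: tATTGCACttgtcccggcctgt
ssc-miR-92b-3p: tATTGCACtcgtcccggcctcc
The opposite arm of the miR-17 hairpin has a seed of its own.
ssc-miR-17-3p: aCTGCAGTgaaggcacttgtag

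Several of these names are separated by a single base. Relative to miR-17-5p, miR-20b differs by T10C and miR-106a by C1A plus 1 extra base at the 3′ end, while miR-20a differs by C1T and C12T and is 1 base shorter. miR-19b differs from miR-19a by T11C, and miR-92b-3p from miR-92a by T10C, G21C and T22C. Over the first 20 bases miR-17-5p, miR-18a, miR-19a, miR-19b, miR-20b, miR-92a, miR-92b-3p and miR-106a each lie within 1 base of another listed name, so a sequencing error or a trimmed end could move a read between those names. miR-20a and miR-17-3p have no neighbour that close. No listed name has the same full sequence as a member, but miR-19b and miR-92a each have a gene in both clusters, so their reads cannot be assigned to one of them.

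The deposited value is reads per 1000000 (RPM), relative to a total for each library that is larger than the reads of the listed miRNAs. What else that total counts is not known here. The listed miRNAs had 7755 to 42541 reads per LO library and 44964 to 55230 per SO library, so a single read was worth 0.702 to 2.17 RPM in LO and 0.457 to 0.522 RPM in SO. Taking 3 reads as the limit, a miRNA without reads may have reached 6.50 RPM in LO replicate 2, the shallowest library, or 1.37 RPM in SO replicate 3, the deepest. No oocyte-restricted miRNA was at hand to check the tissue label. The 8 miRNAs fixed as markers of granulosa and cumulus cells were miR-21, miR-31, miR-132, miR-202-3p, miR-202-5p, miR-212, miR-224 and miR-383. All of them were listed and none was at 0 in every library. They summed to 325 to 1158 RPM in LO and 392 to 736 RPM in SO. How specific they are to these cells was not tested. Markers of stroma and theca (9 listed, 1 of them at 0 throughout) summed to 73.7 to 132 RPM in LO and 45.2 to 101 RPM in SO. Erythroid markers (3 listed) gave 4.21 to 5.21 RPM in LO and 1.56 to 4.18 RPM in SO, leukocyte markers (4 listed of 5) 6.50 to 19.1 RPM in LO and 3.66 to 58.5 RPM in SO, and endothelial markers (2 listed) 9.13 to 17.4 RPM in LO and 3.20 to 14.1 RPM in SO. In bulk libraries like these, fewer cells of a type and less RNA per cell cannot be told apart.

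The 10 members made up 1.32% ± 0.283 of the listed reads in LO, against 1.18% ± 0.117 in SO (SD, n = 3 each). By library the share was 1.65% (95% exact Clopper-Pearson interval 1.47 to 1.85), 1.17% (0.946 to 1.44) and 1.14% (1.05 to 1.25) in LO replicates 1 to 3. For SO replicates 1 to 3 it was 1.04% (0.962 to 1.13), 1.25% (1.15 to 1.36) and 1.24% (1.15 to 1.34). LO replicate 1 stood highest and the groups overlapped; these intervals cover counting error only.

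Summed over the members, the level was 500.1, 197 and 342 RPM in LO replicates 1 to 3, against 301, 294 and 289 RPM in SO replicates 1 to 3. The SO libraries lay close together, with a mean of 295 ± 6.25 RPM, while the LO libraries, at 346 ± 152 RPM, spread on both sides of them (SD, n = 3 each). The order of the 6 libraries by this sum was the same as their order by the summed granulosa and cumulus markers and by the share of the library total that the listed miRNAs took, which was 3.03%, 1.68% and 2.99% in LO, against 2.88%, 2.34% and 2.33% in SO. All of these measures are relative to the same library total. As shares of the listed reads the orders differed: the members were lowest in SO replicate 1 (1.04%) and the markers in SO replicate 3 (1.68%). The part of these measures in the sum was not tested.

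Most of the member reads belonged to miR-92a and miR-20a. Of 2639 member reads in all 6 libraries, 1376 were miR-92a and 827 were miR-20a, followed by 181 of miR-19b and 146 of miR-17-5p. The other 6 members held 3 to 29 reads each. miR-92a and miR-20a together took 83.9% ± 3.57 of member reads in LO, against 83.9% ± 3.48 in SO (SD, n = 3 each).

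miR-92a, whose known targets include integrin alpha 5 in endothelial cells, stood 21st of the 326 names by mean RPM. It had 257, 97.5 and 159 RPM in LO replicates 1 to 3, against 127, 155 and 190.1 RPM in SO replicates 1 to 3. LO replicate 1 was the highest library and LO replicate 2 the lowest, and all 3 SO values fell between them.

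miR-20a, the leading carrier of the miR-17 seed, stood 28th. It had 156, 75.8 and 119 RPM in LO replicates 1 to 3, against 116, 90.2 and 63.1 RPM in SO replicates 1 to 3. LO replicates 1 and 3 were the highest libraries and SO replicate 3 the lowest, with LO replicate 2 inside the SO range.

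miR-19b, the more abundant carrier of the miR-19 seed, stood 68th, with 29.5, 8.67 and 30.2 RPM in LO replicates 1 to 3, against 25.6, 19.3 and 14.2 RPM in SO replicates 1 to 3. LO replicate 2 lay below every other library, on 4 reads, and the other LO libraries lay above the SO libraries.

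miR-17-5p, the first product of the cluster and the namesake of its seed, stood 74th. It had 31.3, 13.0 and 14.7 RPM in LO replicates 1 to 3, against 19.8, 21.4 and 10.1 RPM in SO replicates 1 to 3. Here too LO replicate 1 was highest, and the remaining LO values fell inside the SO range.

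**Figure D1:**
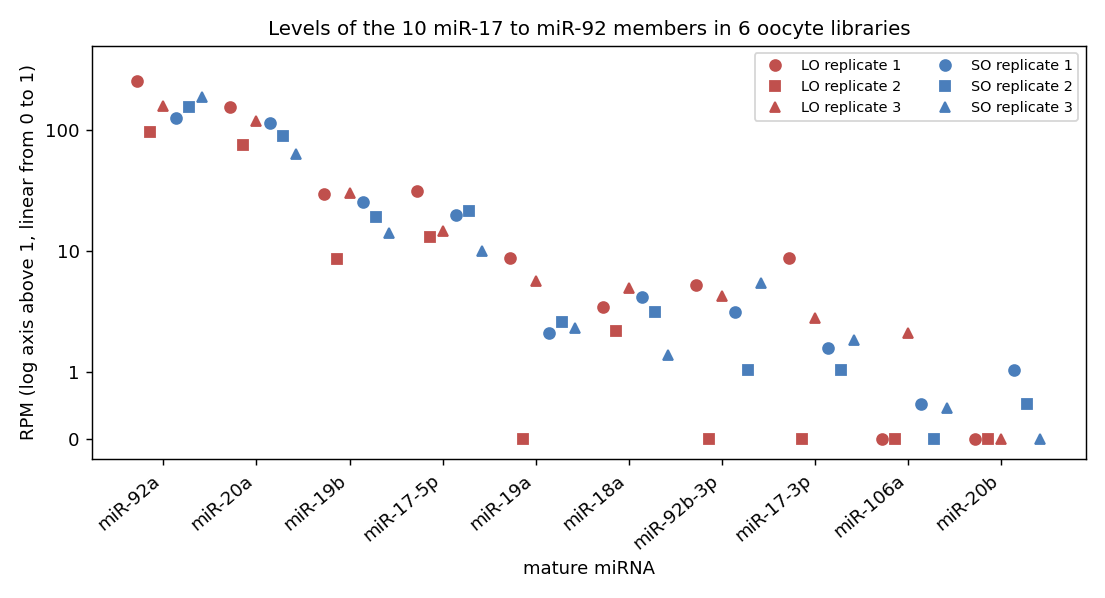
Level of each member in each library, ordered by the mean over the 6 libraries; the y axis is RPM, logarithmic above 1 and linear from 0 to 1, with LO in red to the left of SO in blue and a marker shape per replicate number. miR-92a and miR-20a lie above all other members in every library, and miR-106a and miR-20b sit at or near 0.

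The remaining members were close to the counting limit. miR-19a had 8.68, 0 and 5.62 RPM in LO replicates 1 to 3, against 2.09, 2.61 and 2.29 RPM in SO replicates 1 to 3, so LO replicates 1 and 3 lay above the SO libraries. The 0 in LO replicate 2 allows up to 6.50 RPM and so gives no order, and the SO values rested on 4 or 5 reads each. miR-18a, which carries the miR-18 seed alone among the members, had 3.47, 2.17 and 4.92 RPM in LO replicates 1 to 3, against 4.18, 3.13 and 1.37 RPM in SO replicates 1 to 3, from 1 to 8 reads per library, and the groups overlapped. miR-92b-3p, made from a hairpin outside both clusters, had 5.21, 0 and 4.21 RPM in LO replicates 1 to 3, against 3.13, 1.04 and 5.48 RPM in SO replicates 1 to 3. Its ranges overlapped as well, and the highest value was in SO replicate 3.

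miR-106a and miR-20b, which have genes only in the MIR106A cluster, had 5 and 3 reads in all. miR-106a was found in LO replicate 3 (3 reads) and in SO replicates 1 and 3 (1 read each). miR-20b was found in SO replicates 1 and 2 only, with 2 and 1 reads, and its 0 reads in LO allow up to 2.11 to 6.50 RPM there, above both SO values. No difference between the groups was detectable for either at this depth.

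By the order of mean levels over the 6 libraries, miR-92a exceeded miR-20a, miR-20a exceeded miR-19b, and miR-17-5p exceeded miR-19a in every library. In each of these pairs the mean log2 difference over the 6 libraries was larger than its SD. Single libraries could lie closer. For miR-92a over miR-20a the mean was 0.66 ± 0.51, but SO replicate 1 had 0.14 (244 against 222 reads) and LO replicate 2 had 0.36 (45 against 35 reads). miR-19b and miR-17-5p did not differ beyond their spread: their log2(RPM + 1) values differed by 0.17 ± 0.54 (SD, n = 6), with miR-19b higher in 3 libraries. Nor did miR-19a, miR-18a, miR-92b-3p, miR-17-3p, miR-106a and miR-20b differ beyond the spread between neighbours in this order.

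By seed, the miR-92 members took 49.8% ± 2.42 of member reads in LO, against 54.7% ± 12.3 in SO, and the miR-17 members 40.7% ± 3.90 in LO, against 36.4% ± 10.16 in SO (SD, n = 3 each). The miR-19 members took 7.50% ± 3.04 in LO, against 7.44% ± 1.74 in SO, and miR-18a 1.08% ± 0.372 in LO, against 0.975% ± 0.462 in SO. The order of the seeds, with miR-92 first in 5 libraries, miR-17 next, then miR-19 and miR-18, changed in SO replicate 1, where the miR-17 seed held 45.6% and the miR-92 seed 43.3%. There the miR-17 seed had 263 reads and the miR-92 seed 250, and in LO replicate 2 they had 41 and 45. Whether these small gaps exceed counting error was not tested.

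The 2 leading seeds varied most within SO. The miR-92 seed held 52.4%, 49.5% and 47.6% in LO replicates 1 to 3, against 43.3%, 53.0% and 67.7% in SO replicates 1 to 3. The miR-17 seed held 37.5%, 45.1% and 39.6% in LO replicates 1 to 3, against 45.6%, 38.1% and 25.5% in SO replicates 1 to 3. In SO replicate 3, miR-92a alone took 65.8% of member reads (95% exact Clopper-Pearson interval 62.0 to 69.5), the highest share of the 6 libraries. That interval covers counting error only, and replicates of a group differed by more than counting error.

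**Figure D2:**
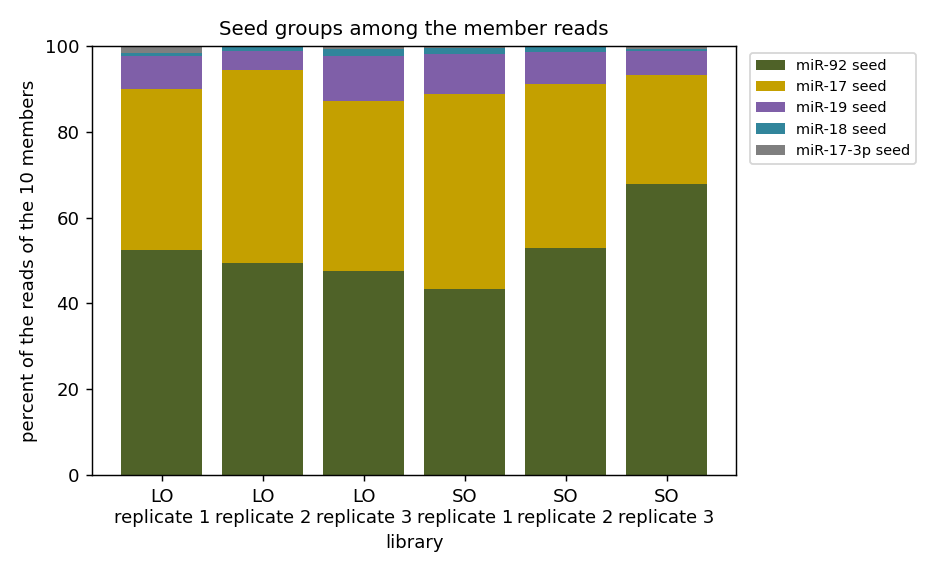
Share of the reads of the 10 members held by each seed group, in percent, with a stacked bar for each library and LO to the left of SO. The miR-92 and miR-17 seeds fill most of every bar, and SO replicate 3 has the largest miR-92 part, at 67.7%.

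The imbalance between members was tested within each library, as the difference of log2(RPM + 1) between 2 members, over 10 pairs. In 7 pairs both names have a gene in the MIR17 cluster, although miR-92a and miR-19b reads may also come from the MIR106A cluster, and the other 3 set miR-92a against miR-92b-3p, miR-17-5p against miR-106a and miR-20a against miR-20b. In all 10 pairs the member named first was higher in 6 of 6 libraries, which gave an exact two-sided sign-flip permutation p of 0.0312, the smallest that 6 libraries can give, and 0.0312 after Benjamini-Hochberg adjustment over the 10 pairs. With 5 libraries this test cannot go below 0.0625. The pairs were chosen with earlier results of these data known, so these p-values are not independent evidence of the imbalance. They concern reads, since how well the kit recovers each sequence was not measured.

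miR-20a and miR-17-5p share a seed and a primary transcript, yet miR-20a was higher by 2.45 ± 0.30 on the log2(RPM + 1) scale (SD, n = 6). Its level was 5.00, 5.83 and 8.05 times that of miR-17-5p in LO replicates 1 to 3, against 5.84, 4.22 and 6.27 times in SO replicates 1 to 3. Of the 10 pairs this one had the smallest SD between libraries.

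miR-92a exceeded miR-20a by 0.66 ± 0.51, the smallest difference of the 10 pairs. The ratio of their levels was 1.64, 1.29 and 1.34 in LO replicates 1 to 3, against 1.10, 1.72 and 3.01 in SO replicates 1 to 3, so SO held both the lowest and the highest value. miR-92a exceeded miR-19b by 2.94 ± 0.55, miR-17-5p by 3.12 ± 0.55 and miR-18a by 5.29 ± 0.67 (SD, n = 6 each).

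Within the miR-19 seed, miR-19b was above miR-19a by 2.50 ± 0.61, with 181 against 27 reads in all, a ratio of 6.70 (95% exact interval 4.46 to 10.5). Intervals of pooled read ratios, here and below, cover counting error only, and the libraries spread more widely, from 3.40 to 12.25 over the 5 libraries with a miR-19a read. Within the miR-92 seed, miR-92a was above miR-92b-3p by 5.50 ± 0.75. The arms of the miR-17 hairpin differed by 2.67 ± 0.87 in favour of the 5p arm, the arm usually loaded into Argonaute, with 146 against 18 reads, a ratio of 8.11 (4.96 to 14.1) and library ratios from 3.60 to 20.5 over the 5 libraries with a miR-17-3p read. miR-17-3p had 8.68, 0 and 2.81 RPM in LO replicates 1 to 3, against 1.57, 1.04 and 1.83 RPM in SO replicates 1 to 3, on 5 or fewer reads in every library.

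**Figure D3:**
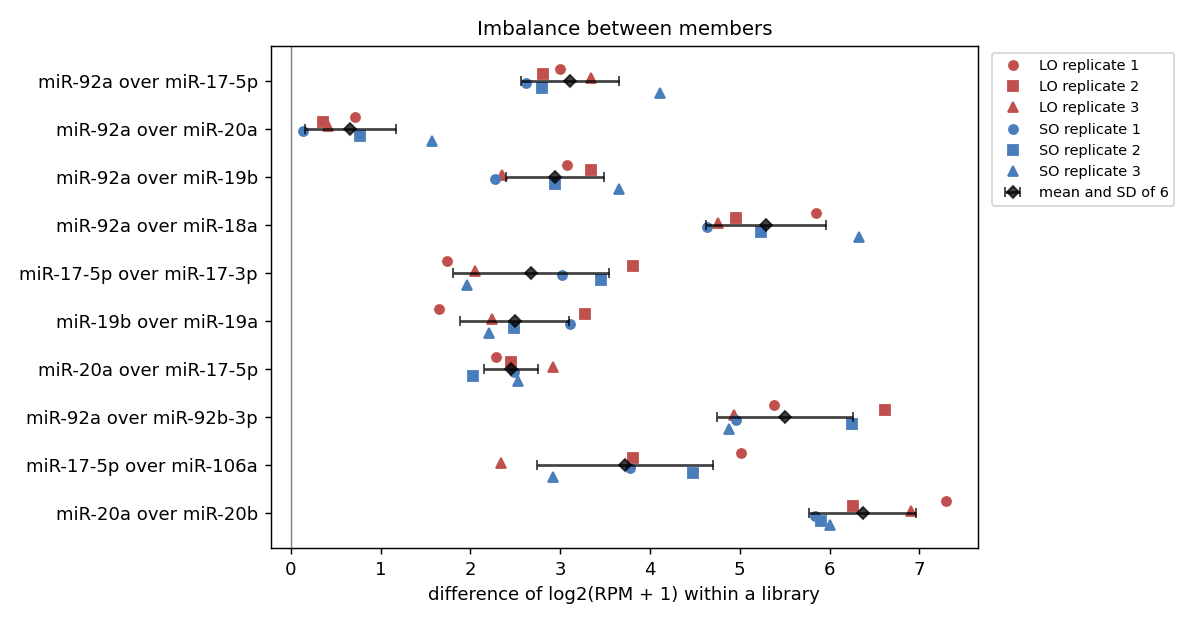
Difference of log2(RPM + 1) between 2 members within each library for the 10 pairs, with a colour per group (LO red, SO blue), a marker per replicate number, and a black diamond with bars for the mean and SD of the 6 libraries. Every point lies above 0, and SO replicate 3 lies farthest right in the pairs of miR-92a over miR-17-5p, miR-20a, miR-19b and miR-18a.

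The names that have a gene in only one of the clusters separate the MIR17 cluster from the MIR106A cluster. The 5 names of the MIR17 cluster alone (miR-17-5p, miR-17-3p, miR-18a, miR-19a and miR-20a) held 1045 reads, and the 4 of the MIR106A cluster alone (miR-20b, miR-106a, miR-18b and miR-363) held 12. This is a ratio of 87.1 (95% exact interval 49.6 to 169, counting error only). It depends on the names summed, since the sets do not match name for name and miR-20a alone held 827 of the 1045 reads. In RPM the names of the MIR17 cluster alone summed to 149 ± 58.7 in LO, against 113 ± 32.8 in SO, and those of the MIR106A cluster alone to 0.936 ± 1.62 in LO, against 1.33 ± 0.785 in SO (SD, n = 3 each).

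For homologous products the difference had the same direction. miR-20a exceeded miR-20b by 6.37 ± 0.60 on the log2(RPM + 1) scale, with 827 against 3 reads, a ratio of 276 (94.0 to 1339). miR-17-5p exceeded miR-106a by 3.72 ± 0.98, with 146 against 5 reads, a ratio of 29.2 (12.2 to 91.3). miR-18b, which differs from miR-18a by A20T and 1 extra base, had no read in any library, and 0 of 218890 listed reads allows a share of up to 0.00137%. miR-19b and miR-92a, encoded in both clusters, held the remaining 1557 reads, or 59.6% of the reads of both clusters.

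Other carriers of these seeds were sought by a fixed list of names and by the seed itself, which gave 3 listed miRNAs, of which 1 had enough reads to test. miR-32, which carries the miR-92 seed and is not part of either cluster, had 17.4, 4.33 and 11.9 RPM in LO replicates 1 to 3, against 14.6, 4.69 and 5.03 RPM in SO replicates 1 to 3. The groups overlapped, and its log2 fold change of 0.41 (SE 0.73) did not pass (limma FDR 0.822). It is shown with miR-363, at 4 reads in all, to mark how far the shared seed extends.
ssc-miR-32: tATTGCACattactaagttgc
ssc-miR-363: aATTGCACggtatccatctgtaa
miR-32 differs from miR-92a at 10 of the 21 bases compared, all after the seed, so these names are not within reach of a single sequencing error. miR-18b was the third. The names miR-106b, miR-93, miR-25 and miR-367 were also sought but are not among the listed names, so their levels are not known here.

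LO and SO were compared for all 104 miRNAs with enough reads, by limma on log2(RPM + 1), where the SE follows the trend of spread with abundance and not the replicates of a single miRNA. Of the 10 members, 4 passed this filter: miR-92a, miR-20a, miR-19b and miR-17-5p. None passed a false discovery rate (FDR) of 0.05, against 0 of 104 in all (0%), and none had an unadjusted p under 0.05, against 4 of 104 (3.85%). edgeR's quasi-likelihood test on the recovered reads called 2 of 104 (1.92%) and had 13 with an unadjusted p under 0.05 (12.5%), with no member among either. Without LO replicate 2 limma called 18 of the 104, none of them a member.

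The LO mean of miR-20a was 117 ± 40.3 RPM and its SO mean 89.7 ± 26.4 RPM, for a log2 fold change of 0.36 (SE 0.52, 95% interval -0.66 to 1.38, limma FDR 0.794). For miR-17-5p the LO mean was 19.7 ± 10.1 RPM and the SO mean 17.1 ± 6.14 RPM, with a log2 fold change of 0.15 (SE 0.64, interval -1.10 to 1.41). For miR-19b the means were 22.8 ± 12.2 RPM in LO and 19.7 ± 5.72 RPM in SO, with a log2 fold change of 0.06 (SE 0.63, interval -1.18 to 1.29). miR-92a, with means of 171 ± 80.5 RPM for LO and 157 ± 31.4 RPM for SO, had a log2 fold change of 0.03 (SE 0.49, interval -0.94 to 0.9998). The errors of these means are SDs over 3 libraries. The intervals instead use a spread pooled over all tested miRNAs, taken as independent of each other, and may be too narrow. All lower bounds lie at -0.66 or below and all upper bounds at 0.9998 or above, so the data do not show that the levels are equal.

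None of the 4 tested members had LO and SO ranges that stayed apart, beside 4 of the 104 tested miRNAs (3.85%), a share too small to expect any among so few. The ranges of the untested members overlapped too. All 4 tested members had log2 fold changes above 0 on the deposited scaling, where 69.2% of the 104 tested miRNAs did too. Their median was 0.11 beside 0.29 for all tested miRNAs, and miR-20a alone lay above that overall median. With limma on log2 CPM and TMM scaling, which moves the overall median to 0.05 (52.9% above 0), miR-20a stayed above 0 at 0.12, while miR-17-5p, miR-19b and miR-92a turned to -0.08, -0.18 and -0.22. Without LO replicate 1 the members' median was -0.22, beside -0.06 for all tested miRNAs, and without LO replicate 2 it was 0.50, beside 0.62.

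**Figure D4:**
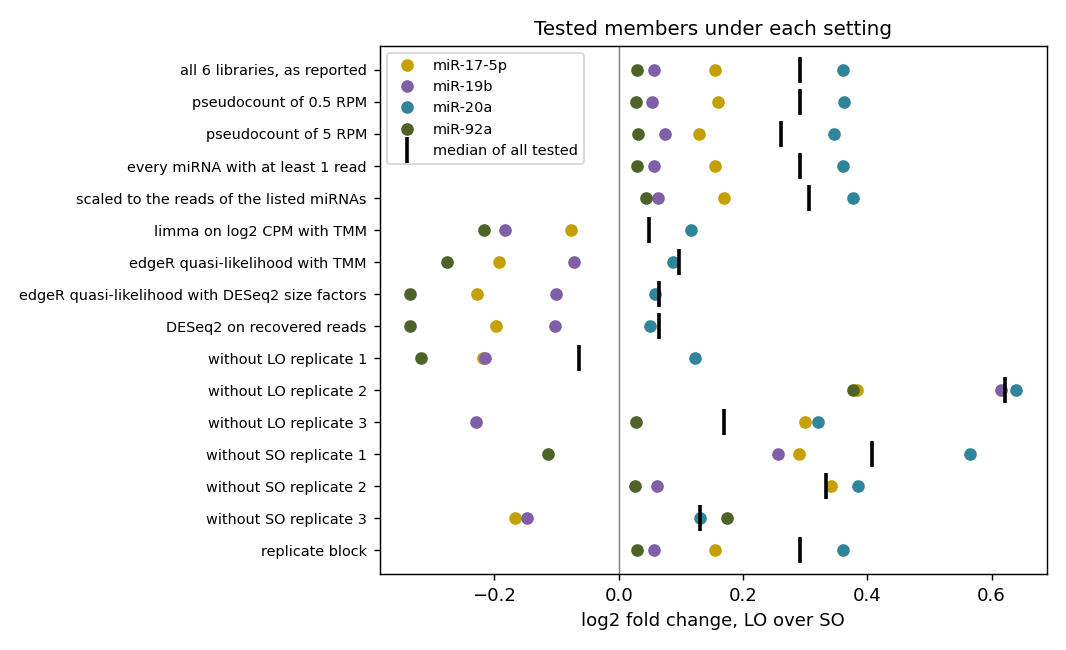
Log2 fold change of LO over SO for the 4 tested members under each setting, with a black bar for the median of all 104 tested miRNAs. miR-20a stays above 0 in every setting shown, miR-92a, miR-19b and miR-17-5p lie on either side of 0, and the overall median runs from -0.06 to 0.62.

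The balance between members was also set between the groups, for 4 pairs. miR-92a over miR-20a was 0.50 ± 0.19 in LO, against 0.83 ± 0.72 in SO, on the log2(RPM + 1) scale, a difference of -0.33 (errors are SDs over 3 libraries; p = 0.6 by exact permutation, two-sided). Without SO replicate 3 that difference was 0.04. miR-20a over miR-17-5p was 2.56 ± 0.33 in LO, against 2.35 ± 0.28 in SO, a difference of 0.21 (exact p = 0.6), falling to 0.021 when LO replicate 3 was left out and to 0.045 when SO replicate 2 was. miR-92a over miR-17-5p and over miR-19b differed by -0.13 and -0.03, and both turned to 0.34 and 0.32 without SO replicate 3, the second also to 0.26 without LO replicate 3. All 4 had an adjusted p of 1 over the 4 pairs by the exact test, in which 3 libraries against 3 cannot go below 0.1 before adjustment, and the ranges overlapped in each.

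The 3 tested miRNAs outside these families whose levels followed the summed members most closely over the 6 libraries were let-7f, miR-320 and miR-22-3p. Likeness was the mean absolute difference of log2(RPM + 1) after centring each profile, which was 0.11 for let-7f, 0.14 for miR-320 and 0.14 for miR-22-3p, beside a median of 0.39 over the 99 miRNAs compared. let-7f had 1254, 405 and 697 RPM in LO replicates 1 to 3, against 709, 638 and 565 RPM in SO replicates 1 to 3. Like the summed members, it was highest in LO replicate 1 and lowest in LO replicate 2. All of these levels are relative to the same library total, whose part in the likeness was not tested. miR-22-3p had 4.33 RPM in LO replicate 2, below the limit of 3 reads there (6.50 RPM).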

How the data were processed

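Small RNA was extracted with mirVana and made into libraries with the QIAseq miRNA kit, per the labels' protocols. bcl2fastq, cutadapt, Bowtie2 2.2.2, edgeR and the build Sscrofa10.2 are listed in the submitters' processing notes, without roles. The sources used here do not say whether molecular identifiers were used. The file header calls the deposited value TPM, but the values of a library are all multiples of the worth of 1 read, for short and long sequences alike, so the deposited values were read as RPM. Reads recovered in this way were whole for 100% of values above 0 (tolerance 0.01 read). Reads were treated as reads and not molecules, and how well the kit recovers each sequence was not measured.

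LO and SO were compared on log2(RPM + 1) by limma 3.58.1 (R 4.3.3, empirical Bayes with a trend in abundance), on the 104 miRNAs passing edgeR's filterByExpr, with Benjamini-Hochberg adjustment. Group was the sole term of the fit. edgeR 4.0.16 and DESeq2 1.42.0 ran on recovered reads. Pairs were tested by exact sign-flip or two-group permutation (scipy 1.17.1). Scripts were tested on simulated data. The members, pairs, marker lists and naming rule (all members, listed relatives, 3 nearest profiles) were chosen with earlier results of these data known. Replicates of a group differed by more than sampling noise (chi-square per degree of freedom 2.87 to 19.9).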

Additional observations from a re-analysis of the deposited data

How the results depend on the processing

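No member passed FDR 0.05 under any of the 15 alternatives to the limma comparison. Over all miRNAs the count of calls was 0 in the main test and moved to 2 by edgeR under either scaling (2 with TMM, 2 with size factors), and 18 without LO replicate 2 (range 0 to 18 over the libraries left out); the cause was not tested. The log2 fold changes of 3 members changed sign. In the order limma on TMM-scaled log2 CPM, edgeR (TMM), edgeR (DESeq2 size factors) and DESeq2, miR-17-5p was at -0.076, -0.19, -0.23 and -0.20, miR-19b at -0.18, -0.071, -0.10 and -0.10, and miR-92a at -0.22, -0.28, -0.34 and -0.34. Leaving out 1 library at a time, they ran from -0.22 to 0.38 for miR-17-5p, from -0.23 to 0.61 for miR-19b and from -0.32 to 0.38 for miR-92a, while miR-20a stayed above 0, from 0.12 to 0.64.

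Leaving out 1 library left no pair able to pass, since 5 libraries allow no p below 0.0625. Every pair had to keep its direction, because the member named first was higher in all 6 libraries, so only the size could move. The log2 differences then ran from 2.92 to 3.21 for miR-92a over miR-17-5p, 0.48 to 0.77 over miR-20a, 2.80 to 3.08 over miR-19b, 5.09 to 5.43 over miR-18a and 5.28 to 5.63 over miR-92b-3p. They ran from 2.45 to 2.86 for miR-17-5p over miR-17-3p, 3.47 to 4.0002 over miR-106a, 2.34 to 2.66 for miR-19b over miR-19a, 2.36 to 2.54 for miR-20a over miR-17-5p and 6.18 to 6.47 over miR-20b. The LO minus SO differences of these ratios ran from -0.40 to 0.34 for miR-92a over miR-17-5p, -0.68 to 0.042 over miR-20a and -0.37 to 0.32 over miR-19b, and from 0.021 to 0.34 for miR-20a over miR-17-5p. The added constant moved the size of pairs with a rare member further. With 5 RPM added, 0.5 RPM added, or 0.5 added to recovered reads, miR-20a over miR-20b was 4.31, 7.19 and 7.25. In the same order, miR-17-5p over miR-106a was 2.04, 4.42 and 4.42, and miR-92a over miR-20a was 0.64, 0.67 and 0.67.

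No pairing by replicate number was seen: same-numbered libraries had correlations of -0.34, -0.22 and 0.08 in their deviations from the group means. Differently numbered libraries ran from -0.29 to 0.43. With 3 libraries per group these correlations cannot exclude a pairing. With the number as a replicate block limma called 0 miRNAs (smallest FDR 0.853, 3 with an unadjusted p under 0.05). The members' fold changes could not move, since each number occurs once in each group, so the block alters only their errors. Depth limits miR-17-3p, miR-18a, miR-19a, miR-20b, miR-92b-3p and miR-106a, which did not pass the filter on reads; fitted with every miRNA that had at least 1 read, none of them passed FDR 0.05 by limma or DESeq2.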
